A study of Saccharomyces cerevisiae with 12 samples.

Results

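The array spots of Saccharomyces cerevisiae BY4741 were first limited to those whose changes in Congo Red were not far from the median spot. Among these, 200 had the highest synthesis rate for their mRNA abundance before the dye was added. They were 200 of the 6144 spots on the array. The choice began from the 4468 spots with all 12 values in the authors' deposited table. Of these, 3574 had a mean mRNA abundance above 0.4734, its 20th percentile in the table's units. Changes were then taken relative to the median spot, so a fall common to all spots was not counted. On that scale 1017 spots were left out. They included the 300 highest and 300 lowest in mean change at 120 to 240 min, in abundance and in synthesis rate. They also included the 300 highest in mean change of abundance at 30 and 60 min. A large early fall was not a reason to leave a spot out. The 2557 spots that were left are called moderate here, and the 200 selected on the highest ratio of synthesis rate to mRNA abundance at 0 min are called high-ratio spots. The 200 moderate spots with the lowest ratio are called low-ratio spots, and the other 2157 moderate spots lay between these ends.

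All samples were cultures of this 1 laboratory strain, labelled wild type, grown at 24 °C in rich medium with glucose. Congo Red, a dye that binds chitin and weakens the cell wall, was added at 30 µg/ml, and cells were taken at 0, 30, 60, 120, 180 and 240 min. At each time mRNA abundance was read on cDNA primed with oligo-dT and labelled with 33P, and nascent transcription was read by genomic run-on, where permeabilised cells go on with RNA chains already begun and take up 33P-UTP. Each of the 2 assays had 18 arrays, 3 replicates at each of 6 times. No untreated culture was followed after 0 min, so the dye and the time in culture cannot be told apart, and whether the replicates came from separate cultures is not stated in the labels.

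A transcript's abundance is set by how fast it is made and how fast it is removed. At steady state removal balances synthesis, so synthesis rate divided by abundance gives the rate at which the mRNA pool is renewed. Transcripts that are renewed quickly can follow a change in transcription sooner than long-lived ones, such as the stable mRNAs of many housekeeping genes in yeast. Cell wall stress in this yeast is known to act through the cell wall integrity pathway, a kinase cascade that changes the transcription of wall genes. The ratio was not a measured decay rate here, and whether cells were at steady state was not tested.

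No file names the gene of a spot, and 0 identifiers matched the reference table of 6477 genes. Spots are therefore called by their place on the array, written as row, column and printing position. For the same reason no sequence is shown and no pathway is named. Whether the table's values are per length of transcript or probe is not given in the sources used here, so a difference in level between spots is a difference in signal.

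The summed intensity of an array was between 387129 and 1660994 for mRNA and between 512224 and 1880504 for nascent transcription. No high-ratio spot was listed at 0 on any array, where between 14.9% and 18.2% of all spots were. On the mRNA arrays the median raw intensity of the high-ratio spots lay between the 49.5th and 57.8th percentile of the array, and on the nascent arrays between the 77.0th and 82.2nd. The arrays average over a culture, so fewer cells with a transcript and less of it per cell cannot be told apart.

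The high-ratio spots joined low mRNA to high synthesis. Median mRNA abundance at 0 min was 0.887 in the high-ratio spots, against 2.16 in the other moderate spots and 13.5 in the low-ratio spots, all in the table's units. Median synthesis rate at 0 min was 0.163 in the high-ratio spots, 0.0952 in the other moderate spots and 0.114 in the low-ratio spots. The ratio at 0 min ran from 0.129 to 0.567 in the high-ratio spots with a median of 0.168. Its median was 0.0409 in the other moderate spots and 0.00759 in the low-ratio spots. These values chose the spots and are given as a description.

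**Figure D1:**
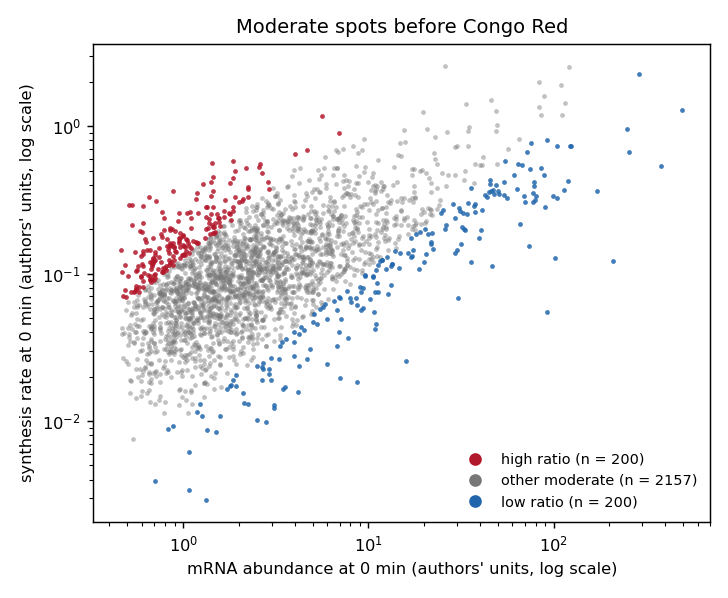
Synthesis rate against mRNA abundance at 0 min for the 2557 moderate spots, both from the authors' table and on log axes, with 1 point per spot. The 200 high-ratio spots form the upper left edge with a median abundance of 0.887, and the 200 low-ratio spots form the lower right edge with a median abundance of 13.5.

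Over the 6 times together, mean mRNA abundance of the high-ratio spots lay at a median of the 33.6th percentile of the 4468 complete spots, and 157 of the 200 were under the 50th percentile. Mean synthesis rate lay at a median of the 76.7th percentile, and 8 of the 200 were under the 50th. The low-ratio spots stood at a median of the 93.0th percentile for abundance and the 63.3rd for synthesis rate. The high-ratio spots therefore differed from the low-ratio ones mainly in abundance, by 15.2 times in the medians at 0 min, and by 1.42 times in synthesis rate.

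A high ratio here is relative to the moderate spots above the abundance minimum, and less so to the whole table. Ranked over all 4468 complete spots at 0 min, 19 of the 200 were in the top 200, and their median stood at the 88.5th percentile. The minimum in abundance removed many spots with little mRNA, and 41 of the 200 lay within 1.25 times of that minimum.

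The high-ratio spots, 4.48% of the complete spots, held 1.24% of the summed mRNA abundance at 240 min, against 0.939% at 0 min. They held 6.80% of the summed synthesis rate at 240 min, against 7.11% at 0 min. The low-ratio spots held 28.7% of the abundance at 240 min, against 29.9% at 0 min. The 0 min ratio chose both ends, so these changes in share are a description.

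The spots differed among themselves more in synthesis rate than in abundance as the ratio went down. The 50 with the highest ratios, from 0.214 to 0.567, had a median abundance of 0.789 and a median synthesis rate of 0.239 at 0 min. In the next 50 these medians were 0.874 and 0.159, and in the 50 after them 1.05 and 0.164. The last 50, with ratios from 0.129 to 0.143, had a median abundance of 0.852 and a median synthesis rate of 0.116.

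The highest ratio, 0.567 at 0 min, belonged to R5 - C9 : 14. Its normalised log2 mRNA intensity was 5.20, 4.15 and 2.73 in replicates 1, 2 and 3 at 240 min, against 4.30, 4.52 and 4.51 at 0 min. Its normalised log2 nascent intensity was 7.70, 8.38 and 8.04 at 240 min, against 8.17, 8.94 and 8.58 at 0 min. The nascent signal kept within an SD of 0.40 at every time, whereas the mRNA replicates, within an SD of 0.12 at 0 min, spread to an SD of 1.24 at 240 min, and the 2 times overlapped in both assays. Each nascent replicate was lower at 240 min than at 0 min. The fitted nascent difference was -0.53 ± 0.27 on the log2 scale (SE, limma adjusted p = 0.452). With the replicate number as a block the limma adjusted p was 0.0402, where 5.05% of all spots were called at some time. The block was only an alternative for the nascent arrays. The 0 min nascent signal helped choose the spot and is the base of this difference, so it is a description.

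R11 - C14 : 8 had a ratio of 0.555 at 0 min. Its log2 mRNA intensity was 5.80, 4.45 and 4.04 at 240 min, against 5.22, 4.10 and 3.62 at 0 min, so that replicate 1 was the highest at both times and each replicate was higher at 240 min while the groups overlapped. Its log2 nascent intensity averaged 8.42 ± 0.61 at 240 min and 8.05 ± 0.41 at 0 min (SD, n = 3 each). The fitted mRNA difference was 0.45 ± 0.61 (SE, limma adjusted p = 0.935). With the replicate number as a block it was 0.45 ± 0.13 (SE, limma adjusted p = 0.0409), where 13.1% of all spots were called at 240 min. The 0 min abundance helped choose the spot and is the base of this difference, so it is a description.

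R11 - C14 : 3, in the same block as the spot before, had a ratio of 0.506 at 0 min. Its log2 nascent intensity was 7.47, 8.90 and 8.75 in replicates 1, 2 and 3 at 240 min, against 9.20, 8.93 and 8.87 at 0 min. At 240 min replicate 1 was lower than before the dye and replicates 2 and 3 were near their level at 0 min, but replicate 3 was at 7.07 at 120 min and replicate 2 at 7.57 at 180 min. The fitted nascent difference at 120 min was -1.12 ± 0.42 (SE, limma adjusted p = 0.219), again from the 0 min signal that helped choose the spot. Its log2 mRNA intensity at 120 min was 6.38, 3.93 and 2.54, an SD of 1.95 over the 3 replicates, against 5.68, 4.53 and 4.30 at 0 min, an SD of 0.74.

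R3 - C6 : 8 had a ratio of 0.472 at 0 min and the steadiest nascent signal of these 4 spots. Its log2 nascent intensity averaged 8.28 ± 0.19 at 240 min and 8.19 ± 0.19 at 0 min (SD, n = 3 each), and its SD was at most 0.24 at any time. Its log2 mRNA intensity was 5.46, 4.41 and 3.71 at 240 min, against 4.98, 4.34 and 3.94 at 0 min. As in the other 3 spots, replicate 1 of the mRNA arrays was the highest at 240 min and replicate 3 the lowest.

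At the edge of the choice the ratio was 0.1286 in R9 - C15 : 5 and R7 - C16 : 10, the last 2 spots inside, and 0.1285 in R15 - C5 : 14 and 0.1280 in R12 - C16 : 8, the first 2 outside. The 2 inside had abundances of 1.49 and 1.81 at 0 min. The 2 outside had abundances of 0.501 and 1.12. The edge thus fell where spots were packed closely, and a small change in the ratio moves spots across it.

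**Figure D2:**
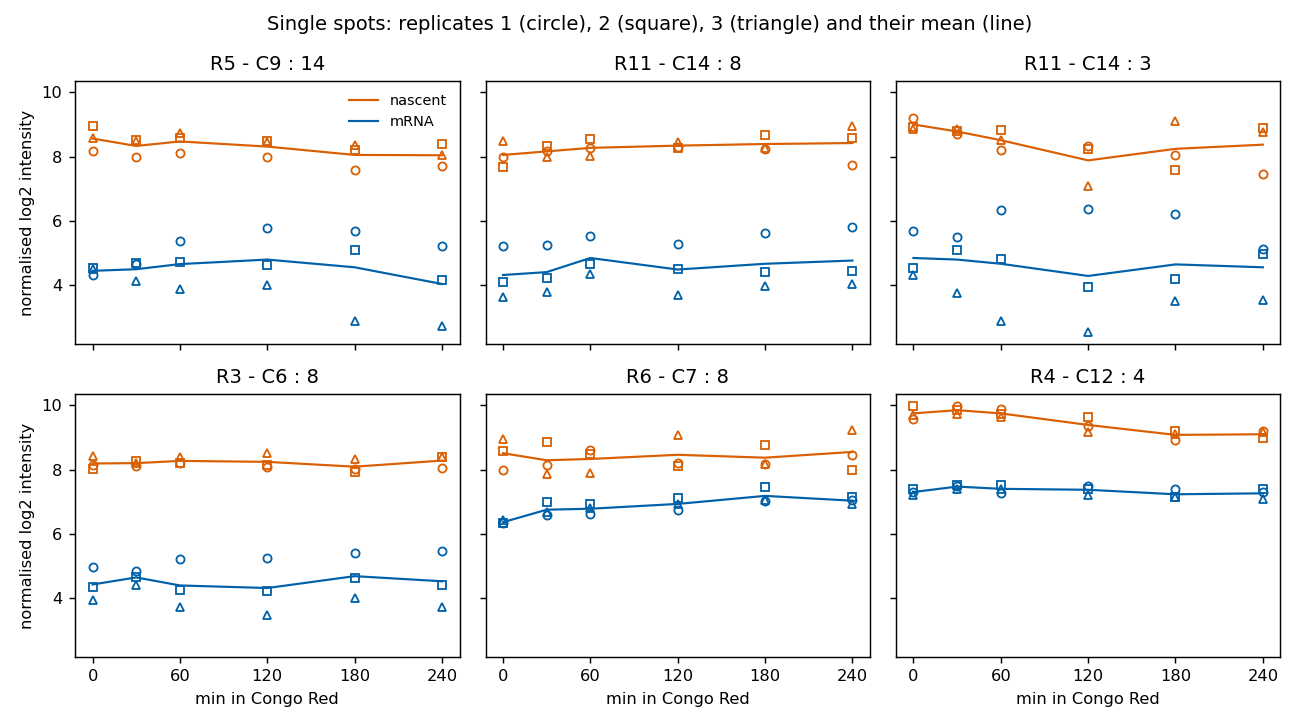
Normalised log2 intensity by time in Congo Red for the 4 spots with the highest ratio and for R6 - C7 : 8 and R4 - C12 : 4, with each replicate as a point, its mean as a line, nascent arrays in orange and mRNA arrays in blue. In every panel the nascent points lie above the mRNA points at each time, and in the first 4 panels mRNA replicate 1 is the highest at 240 min. The assays were normalised separately, so the gap between them is not a difference in amount.

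The ratio was next read in arrays that had not chosen the spots. The whole choice was made again from 2 of the 3 replicates, and the ratio of normalised nascent to mRNA intensity was read in the replicate left out. Nascent and mRNA arrays were matched by their replicate number. Whether arrays of the same number share a culture is not stated in the labels and was not tested across the assays. At 0 min the spots chosen without replicate 1, 2 or 3 lay at a median of the 93.1st, 95.5th and 96.3rd percentile of the moderate spots in that replicate. In the replicate left out 200 of 200, 200 of 200 and 195 of 196 spots were above the moderate median. The median log2 ratio over the moderate spots was 1.74, 2.19 and 2.52 in the replicates left out, against 2.13, 2.10 and 2.35 in the replicates that chose them. These sets shared 118, 111 and 86 spots with the 200. A high ratio was thus repeated in a replicate whose ratio did not enter the choice, while the identity of the single spots varied. The probe on the spot, its printing position and the labelling method are shared by all replicates. The normalisation and the filter on intensities above 0 also used all replicates, so the replicate left out was not wholly outside the choice.

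Most high-ratio spots stayed among the highest ratios through 240 min in the dye. Of the 200, by the table's values, 152, 160, 167, 154 and 152 were among the 200 highest moderate spots at 30, 60, 120, 180 and 240 min. All 200 stood above the median of the moderate spots and above every low-ratio spot at each of these times. The lowest of them was at the 77.6th percentile of the moderate spots at 240 min. Before the dye the lowest ratio of a high-ratio spot was 0.1286 and the highest of a low-ratio spot 0.0106. The rule had also left out the largest mean changes at 120 to 240 min, which limited how far these ratios could move. That the 200 stayed high in the table was thus largely set by the choice and is a description. In the replicates left out, the median percentile at 240 min was 89.7, 95.1 and 96.2 for replicates 1, 2 and 3.

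Both measures were lower at the late times in the table. Relative to 0 min, synthesis rate was the lower of the 2 as deposited, and abundance was the lower with the volume normalisation of the synthesis rate undone. Median mRNA abundance of the high-ratio spots was 1.08, 1.12, 0.839, 0.785 and 0.745 times its level at 0 min at 30, 60, 120, 180 and 240 min. Over all complete spots it was 1.04, 1.03, 0.755, 0.671 and 0.647 times that level. At 240 min 10 of the 200 stood above their abundance at 0 min, against 543 of the 4468 complete spots. The rule limited these changes, so they are a description.

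Median synthesis rate of the high-ratio spots was 0.950, 0.936, 0.777, 0.580 and 0.557 times its level at 0 min at the same times. Over all complete spots it was 0.995, 0.943, 0.804, 0.594 and 0.571 times that level. The synthesis rate in the table is normalised to cell volume, with factors for the 3 late times of 1.17, 1.44 and 1.65, per the series' design text. Taken as a division and undone by multiplying with that factor, the median fold at 240 min was 0.918 in the high-ratio spots and 0.942 in all complete spots, against 0.557 and 0.571 before. The median abundance fold of the high-ratio spots at that time was 0.745.

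**Figure D3:**
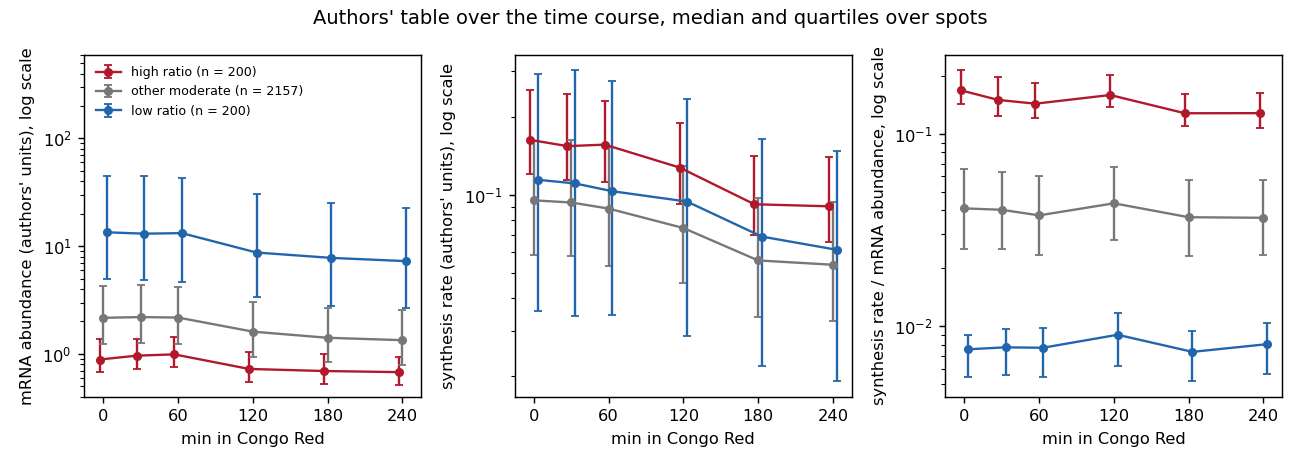
Median mRNA abundance, synthesis rate and their ratio by time in Congo Red from the authors' table, on log axes, with bars from the lower to the upper quartile over spots. The high-ratio spots lie lowest in abundance and highest in the ratio at every time, with a median ratio of 0.128 at 240 min against 0.168 at 0 min, which is 0.211 at 240 min with the volume factor undone.

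Relative to the typical candidate spot, mRNA of the high-ratio spots stood higher at the later times and their synthesis rate did not. Abundance at 0 min is both the denominator of the ratio that chose the spots and the base of these changes, and the rule used the changes, so they are a description with no test. The median log2 change in abundance less that of the 3574 spots above the abundance minimum was 0.07, 0.13, 0.17, 0.25 and 0.24 at 30, 60, 120, 180 and 240 min, and 159 of the 200 were above the typical spot at 240 min. The same measure was -0.25 in the low-ratio spots and -0.01 in the other moderate spots at 240 min. For synthesis rate it was -0.06, -0.01, -0.04, -0.03 and -0.03 at those times, and 88 of the 200 were above the typical spot at 240 min.

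The median ratio was 0.128 at 240 min, against 0.168 at 0 min, in the high-ratio spots. That direction rests on the volume normalisation, since with its factor undone, an alternative added after the values were seen, the median ratio at 240 min was 0.211 in the high-ratio spots, 0.0604 in the other moderate spots and 0.0133 in the low-ratio spots, each above its value at 0 min. As deposited, the median in the other moderate spots was 0.0366 at 240 min, against 0.0409 at 0 min, and in the low-ratio spots it was 0.00807 at 240 min, against 0.00759 at 0 min. The high-ratio spots stood 3.50 times above the other moderate spots at 240 min, against 4.11 times at 0 min, and 15.8 times above the low-ratio spots at 240 min, against 22.1 times at 0 min. The common factor leaves these gaps as they are. The 0 min ratio that chose both ends is the base of these changes, so this narrowing is a description with no test. It was widest in the 50 spots with the highest ratios, where the median relative log2 change at 240 min was -0.35, against -0.18 in the last 50.

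In the arrays the size of this shift differed between replicates. The median log2 mRNA change of the high-ratio spots at 180 min against 0 min, less that of the moderate spots, was 0.41, 0.16 and 0.00 in replicates 1, 2 and 3. At 240 min it was 0.37, 0.12 and -0.01. Replicate 1 had the largest shift at both times and replicate 3 was near 0. The mean over replicates at 240 min was 0.16 ± 0.20 (SD, n = 3), which is no larger than its spread, and without replicate 1 the values were 0.12 and -0.01.

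The same held for the ratio, with nascent and mRNA arrays matched by replicate number only. Its median log2 change at 240 min against 0 min, less that of the moderate spots, was -0.43, -0.24 and -0.03 in replicates 1, 2 and 3, a mean of -0.23 ± 0.20 (SD, n = 3). All 3 were below 0, and without replicate 1 they were -0.24 and -0.03. At 30 min the 3 values were -0.07, -0.08 and -0.09, a mean of -0.08 ± 0.01, in spots that the 0 min ratio had chosen. In spots chosen without the replicate that was read, they were -0.07, -0.01 and -0.06 at 30 min, a mean of -0.05 ± 0.03 (SD, n = 3). The same reading at 240 min was -0.50, -0.09 and 0.00, a mean of -0.20 ± 0.27, against a mean of -0.25 ± 0.14 in the replicates that chose them (SD, n = 3 each).

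The relative median of the nascent signal at 240 min was -0.10, -0.05 and -0.02 in replicates 1, 2 and 3, a mean of -0.06 ± 0.04 (SD, n = 3). In replicate 3 it was -0.18, -0.15, -0.11 and -0.11 at 30, 60, 120 and 180 min, where the mRNA of that replicate was at -0.07, -0.01, -0.02 and 0.00. At 30 min replicates 1 and 2 were at -0.01 and -0.02 in nascent signal. The low-ratio spots had 0.24 in replicate 3 at 30 min.

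**Figure D4:**
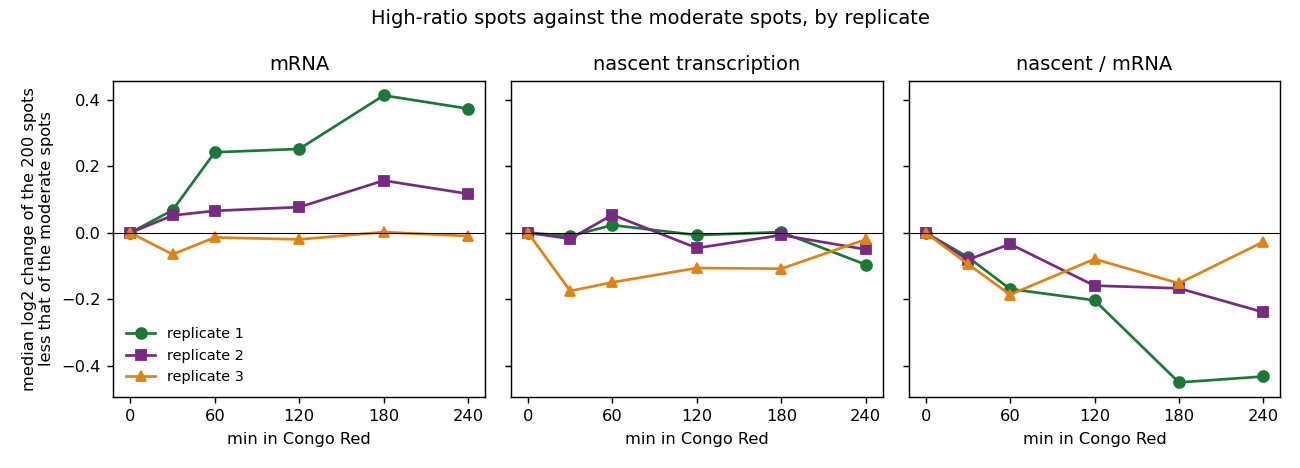
Median log2 change against 0 min of the 200 high-ratio spots less that of the moderate spots, by time in Congo Red and by replicate, for mRNA, nascent transcription and their ratio from the normalised arrays. The ratio matches nascent and mRNA arrays by replicate number. In mRNA replicate 1 reaches 0.41 at 180 min while replicate 3 stays near 0.

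In replicate 1 the 778 other moderate spots with a mean abundance under the 50th percentile had a relative median of -0.07 in mRNA at 240 min, and the 157 high-ratio spots with such abundance had 0.35 and the other 43 had 0.44. Other moderate spots at printing positions 4, 5 and 8 had 0.24 in mRNA at 240 min in replicate 1, against -0.05 in replicates 2 and 3. Relative to the moderate spots of their own printing position, the high-ratio spots had 0.22, 0.14 and 0.02 in replicates 1, 2 and 3. The part of abundance and of place in the shift was not tested.

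Place on the array also differed in the choice itself. Positions 4, 5 and 8 held 96 of the 200 high-ratio spots, 48.0% of them, and 22.4% of the moderate spots. Position 8 held 40 high-ratio spots among 221 moderate ones, whereas position 13 held 1 among 229. The median ratio of all moderate spots at 0 min was 0.0790 at position 8 and 0.0188 at position 13. Rows 9 to 13 held 49.5% of the high-ratio spots and 31.7% of the moderate ones. The spots lay in 148 of the 384 blocks, with at most 4 in a block. What probes were printed at each position is not given in the sources used here, and the part of position in the ratio was not tested beyond a repeat of the choice. When the ratio was taken relative to the median of its position, an alternative added after this was seen, 130 of the 200 were chosen again.

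**Figure D5:**
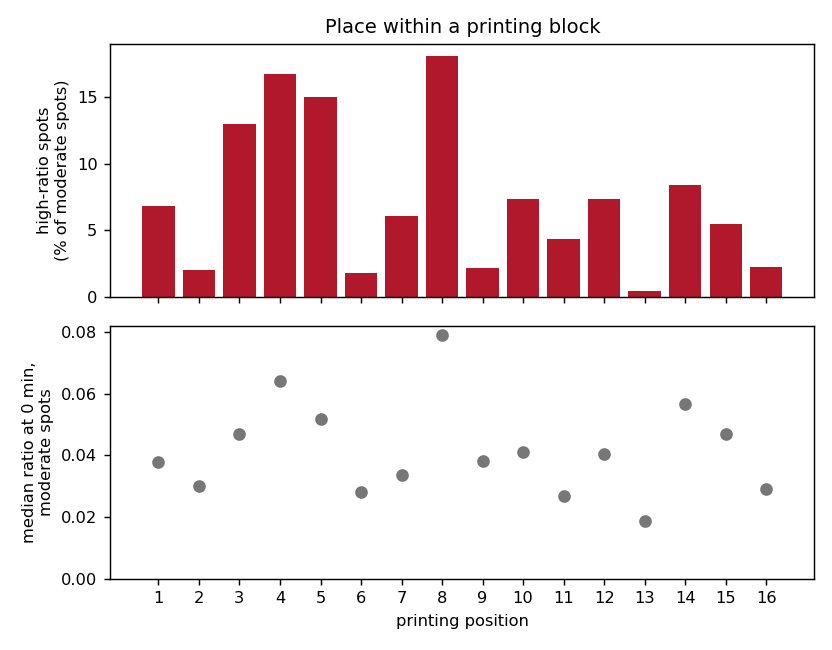
Share of moderate spots that were high-ratio spots (upper panel, in percent) and median ratio at 0 min of all moderate spots (lower panel) at each of the 16 printing positions of a block. Position 8 is the highest in both panels, with 40 of 221 moderate spots, and position 13 is the lowest in both, with 1 of 229.

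Each spot was then tested across the arrays with limma, with Benjamini-Hochberg adjustment over all spots tested and a threshold of 0.05. All 200 entered both fits. Against 0 min, contrasts that the rule had used, 1 of the 200 changed in mRNA at any time, where 2.07% of the 4882 spots tested did. In nascent transcription 1 of the 200 changed at any time, where 1.6% of 5113 spots did. The nascent change differed from the mRNA change in 0 of the 200, where 0.0416% of 4805 spots differed, and the count at an unadjusted p under 0.05 was 4 of the 200 at 240 min, where 3.12% of all spots were under it. Few calls are what leaving out the most extreme spots gives, so nothing is read from these counts.

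The mRNA call was R6 - C7 : 8 at 180 min, where 1.76% of spots were called. It was singled out after its values were seen. Its log2 mRNA intensity was 7.02, 7.47 and 7.05 in replicates 1, 2 and 3 at 180 min, against 6.33, 6.32 and 6.42 at 0 min. All replicates at 180 min lay above all at 0 min, by 0.83 ± 0.18 on the log2 scale (SE, limma adjusted p = 0.0252). At 240 min it was 7.05, 7.14 and 6.92, 0.68 ± 0.18 above 0 min (adjusted p = 0.0734). Its log2 nascent intensity averaged 8.37 ± 0.34 at 180 min and 8.51 ± 0.49 at 0 min (SD, n = 3 each), so the groups overlapped there. The mRNA call was lost with printing positions centred, with only the 6 arrays compared and with any 1 replicate left out.

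The nascent call was R4 - C12 : 4 at 180 min, where 1.27% of spots were called. It too was singled out after its values were seen. Its log2 nascent intensity was 8.92, 9.19 and 9.12 at 180 min, against 9.58, 9.98 and 9.69 at 0 min. It fell by 0.67 ± 0.16 on the log2 scale (SE, limma adjusted p = 0.0497), with no overlap, and at 240 min the difference was -0.65 ± 0.16 (adjusted p = 0.0757). The nascent call was lost with scaling to a common median, cyclic loess, printing positions centred, log2 of intensity plus 1, only the 6 arrays compared and any 1 replicate left out. Its log2 mRNA intensity averaged 7.23 ± 0.15 at 180 min and 7.30 ± 0.10 at 0 min (SD, n = 3 each). With an abundance of 4.02 and a synthesis rate of 0.646 at 0 min it was among the strongest signals of the 200, at the 78.0th and 98.1st percentile of all complete spots over the 6 times.

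With the replicate number as a block, which pairs the mRNA arrays, 17 of the 200 changed in mRNA at some time against 0 min, where 17.6% of all spots did. Of these, 15 rose, by 0.45 to 0.83 on the log2 scale, and 2 fell, R6 - C11 : 12 and R10 - C14 : 12, both at 240 min. At 120 min 3 rose, where 6.55% of all spots were called in either direction. At 180 min 9 rose, where 13.7% were called in either direction, and at 240 min 12 rose and 2 fell, where 13.1% were called. R6 - C7 : 8 then passed at 120, 180 and 240 min, with adjusted p = 0.0162, 0.00102 and 0.00329 in limma. In nascent transcription 2 of the 200 were called with the block, where 5.05% of all spots were, and in the difference between assays 1 was, where 0.541% were. The 0 min abundance that helped choose the spots is the base of the mRNA contrasts, and the rule left out the largest changes. Nothing is therefore read from these counts or from their direction.

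The contrasts of 60 min against 30 min and of 240 min against 120 min used no 0 min array. They were still not outside the choice. The rule used means over 120 to 240 min in both measures and over 30 and 60 min in abundance. The counts and medians in these contrasts are therefore a description. In mRNA 0 of the 200 changed in limma in either contrast, where 0.0% of all spots did. At an unadjusted p under 0.05 there was 1 of the 200 at 60 min against 30 min, where 0.778% of all spots were, and 3 at 240 min against 120 min, where 1.25% were. With the block there were 7 and 14, where 4.01% and 5.24% of all spots were, again with none of the 200 past the adjusted threshold. In nascent transcription 0 of the 200 changed, where 0.0196% of all spots did at 240 min against 120 min and 0.0% at 60 min against 30 min, and 5 and 4 had an unadjusted p under 0.05 at 60 and at 240 min, where 2.44% and 1.64% of all spots did. The difference between assays was called in 0 of the 200, where 0.0% of all spots were, with 2 and 1 at an unadjusted p under 0.05, where 0.333% and 0.541% of all spots were.

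The median fitted change of the 200 was small in each of these contrasts. In mRNA it was 0.10 at 60 min against 30 min, with 139 of 200 above 0, and 0.03 at 240 min against 120 min, with 114 above 0. Over all spots the medians were 0.01 and -0.01, with 50.9% and 48.1% above 0. In nascent transcription it was 0.05 and -0.03, against 0.01 and -0.02 over all spots. Single spots ranged from -0.85 to 0.79 in mRNA at 60 min against 30 min and from -0.76 to 0.92 at 240 min against 120 min, with a median SE of 0.28. Relative to the moderate spots, the mRNA median at 60 against 30 min was 0.16, -0.01 and 0.04 in replicates 1, 2 and 3. In these replicates 140, 98 and 112 of the 200 were above the moderate median, so the shift was largest in replicate 1.

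Since none passed, the spots with the smallest unadjusted p in mRNA at 240 min against 120 min are given as values. R9 - C2 : 3 had a log2 mRNA intensity of 5.40, 5.95 and 5.51 in replicates 1, 2 and 3 at 240 min, against 4.65, 4.63 and 4.84 at 120 min, a difference of 0.92 ± 0.34 (SE, adjusted p = 1.0). Its log2 nascent intensity averaged 7.53 ± 0.46 at 240 min and 6.97 ± 0.30 at 120 min (SD, n = 3 each). R11 - C21 : 8 had 6.78, 6.61 and 6.36 at 240 min, against 6.12, 6.14 and 5.95 at 120 min, a difference of 0.51 ± 0.22. In both spots the mRNA replicates of the 2 times did not overlap.

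In the other direction, R6 - C11 : 12 had a log2 mRNA intensity of 4.46, 4.90 and 4.91 at 240 min, against 5.21, 5.50 and 5.44 at 120 min, a difference of -0.63 ± 0.24 (SE, limma adjusted p = 1.0). The 2 times did not overlap. R11 - C16 : 8 had 5.58, 5.31 and 5.09 at 240 min, against 5.65, 5.52 and 5.70 at 120 min, a difference of -0.30 ± 0.21, and the times overlapped there. Neither passed the threshold.

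Counted by overlap alone, 10 of the 200 had all 3 mRNA replicates at 60 min above all 3 at 30 min, where 1.9% of 4739 spots did, and 2 had them all below, where 1.54% did. At 240 min against 120 min 6 were all above, where 1.57% of 4703 spots were, and 3 all below, where 1.85% were. In nascent transcription 8 were all above and 9 all below at 60 min against 30 min, where 3.94% and 3.83% of 5070 spots were. At 240 min against 120 min 5 were all above, where 1.93% of 5073 spots were, and 9 all below, where 3.02% were. The shares of the 200 were 5.0% and 1.0% in mRNA at 60 min and at most 4.5% in the others. The spots they are set beside had not all passed the same filters. The median SD over replicates in mRNA was 0.34 in the 200, against 0.44 over all spots tested. The relative mRNA median at 60 against 30 min was 0.16, -0.01 and 0.04 in replicates 1, 2 and 3. The part of spread and filters in these counts was not tested, and nothing is read from them.

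Within the 200, spots with a larger change in synthesis rate also had a larger change in abundance, loosely. Across the 200 spots the correlation of the 2 log2 changes against 0 min was 0.17, 0.29, 0.48, 0.31 and 0.40 at 30, 60, 120, 180 and 240 min in the table. Across the low-ratio spots it was 0.23, 0.00, 0.28, 0.05 and 0.32, and across the other moderate spots 0.09, 0.26, 0.39, 0.28 and 0.30. Spots of 1 array share its labelling and its place effects and are not replicates, so these are descriptions.

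The step from 120 to 240 min shares no value with 0 min, though the rule used both times. For this step the correlation was 0.41 across the high-ratio spots, 0.22 across the other moderate spots and 0.17 across the low-ratio spots in the table. In the arrays, matched between assays by replicate number only, it was 0.36, 0.57 and 0.49 across the high-ratio spots in replicates 1, 2 and 3. It was 0.22, 0.44 and 0.39 across the other moderate spots and -0.26, 0.38 and 0.26 across the low-ratio spots. The high-ratio spots had the highest value in each replicate. The median SD over replicates in nascent signal was 0.23 in the high-ratio and 0.35 in the low-ratio spots. The part of this spread in the order was not tested. For the step from 30 to 60 min the high-ratio spots had 0.03, 0.34 and 0.18, against 0.03, 0.39 and 0.28 in the other moderate spots, and the order did not hold there.

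The high-ratio spots, which had passed filters that all spots tested had not, also had a lower median spread than those. Their median residual SD over replicates was 0.34 on the log2 scale in mRNA, against 0.44 over all spots tested, and 0.23 in nascent transcription, against 0.32. The low-ratio spots, which had passed the same filters, had 0.39 and 0.35. The part of the filters in the spread was not tested. The nascent signal of the high-ratio spots was among the brighter of the array, and their mRNA signal was near its middle.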

How the data were processed

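Per the labels, 36 arrays of 33P-labelled material held mRNA abundance or nascent transcription, and the authors deposited 1 intensity per spot and array, with no background column or flag. The authors also deposited a table of signal per spot and time with replicates combined, whose scaling is not given in the sources used here. Array files carry the replicate numbers.

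The members and lists were chosen with earlier results of these data known. The members came from the table by fixed steps. For the arrays, intensities of 0 were set to missing, the rest taken to log2 with no pseudocount, and spots kept if each group had 2 or more replicates of 3 above 0. Arrays were quantile normalised within an assay, which removes a change common to all spots, and fitted with time as a factor in limma 3.58.1 (R 4.3.3); the difference between assays was fitted over 36 arrays with weights per assay. The scripts were tested on simulated arrays, where 100 spots were changed by 1 and 100 by 2 on the log2 scale at 240 min. Against 120 min, 23 and 70 of these were called in mRNA, and 55 and 91 in nascent transcription. A count of 0 in that contrast therefore does not show that spots were steady. Python 3.11.15, numpy 2.4.6, pandas 2.3.3 and matplotlib 3.10.9 did the rest.

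Spots were named by rule: the 4 highest ratios, 2 on each side of the choice, and up to 2 rises and 2 falls in contrasts without 0 min, by smallest p where none passed. The design allowed for gene names; its gene lists were not run. Same-numbered mRNA arrays deviated together in all 45 pairs (correlation 0.609 to 0.811), so the block pairs them, on the data and not the labels; 14 of 45 nascent pairs were at or below 0.1, so there it is an alternative. The number of arrays limits the precision, and p-values measure the spread between arrays, which may be technical.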

Additional observations from a re-analysis of the deposited data

How the results depend on the processing

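The count of high-ratio spots that changed in mRNA against 0 min was 1. With the replicate block it was 17, with cyclic loess 2, and with printing positions centred or with only the 6 arrays compared it was 0. Leaving out any replicate gave 0 to 0. The count in nascent transcription was 1, with the replicate block 2, and 0 with cyclic loess, scaling to a common median, printing positions centred, log2 of intensity plus 1 or only the 6 arrays compared. Leaving out any replicate gave 0 to 0. For the difference between assays it was 0, and 1 with the replicate block (R15 - C11 : 4 at 240 min, -0.85 on the log2 scale, limma adjusted p = 0.0329). Fewer arrays leave fewer degrees of freedom; otherwise the cause was not tested. In the contrasts of 60 against 30 min and of 240 against 120 min the count was 0 under every alternative run, the block included. The median change of the 200 changed sign under 1 alternative each for mRNA at 240 against 120 min (-0.03 to 0.05), for the difference at 60 against 30 min (-0.10 to 0.01) and for the difference at 240 against 120 min (-0.09 to 0.04). Of the 200, 194 were kept with the abundance minimum set over spots with 6 values, 100 with 100 kept and 160 with the ratio from the arrays. With no spot left out for its change 110 were kept, and 130 with the ratio taken relative to its printing position. The median relative log2 change of the ratio at 240 min, -0.26 in the table, ran from -0.38 to -0.22 over these choices. With arrays scaled to a common median, the mean over replicates left out kept its direction for the ratio change at 240 min, and the mean percentile at 0 and 240 min moved by less than the spread between replicates. Single values turned, such as replicate 3 at 30 min, where the ratio change was 0.08 with that scaling, against -0.06 without it, and the nascent change 0.04, against -0.07. The nascent change of replicate 3 at 60 min and of replicate 2 at 120 min turned too, at 0.02, against -0.06, and at 0.13, against -0.02. The change in nascent signal of replicate 1 at 30 min, near 0 in both, turned as well. The log2 change of the median ratio of the 200 at 240 min against 0 min in the table was 0.33 with the volume factor undone, against -0.39 as deposited, which follows from that factor of 1.65.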
